A study of Rattus norvegicus with 15 samples.

Results

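Transcripts of 10 genes that encode adipokines or take part in the response of fat cells to insulin were followed through the synovium of control, arthritic and antibody-treated arthritic rats. The genes were Lep, Adipoq, Cfd, Retn, Slc2a4, Insr, Irs1, Grb14, Nnat and Npr3, picked by symbol from the 23342 genes of the deposited count table, and 10 of 10 were among the 16046 genes that passed the filter on low counts. Lep, Slc2a4, Grb14, Nnat and Npr3 were picked because they were higher under the antibody in these libraries, so their values in both antibody comparisons are given as a description, with no test. The same choice favours genes with low values in the arthritic libraries, which the comparison of arthritis with control shares.

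Synovium, the tissue that lines and cushions the joint, came from wild-type (WT) rats in 3 groups of 5 libraries. Control rats (CON) were left untreated. Rats with adjuvant-induced arthritis (AIA) had received 100 uL of Complete Freund's Adjuvant into the skin of the tail. Rats of the third group (Ab) had the same arthritis and were also given an anti-cANGPTL4 antibody into the peritoneum, 2 times a week. No vehicle and no isotype antibody is named for the AIA group, and the sources used here give no strain, age or day of sampling. Ab replicate 21_8 has a pair of numbers in its title; with every library counted as 1 rat, p-values measure the spread between rats.

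Adipokines are hormones and other proteins that fat cells secrete. Leptin and adiponectin inform other tissues about fat stores, and complement factor D, the product of Cfd, is a protease of the alternative complement pathway that rodent fat cells make in large amounts. Insulin acts on fat cells through its receptor and the adaptor IRS1, which leads to insertion of the glucose transporter GLUT4 into the cell surface and to fat storage. The synovium of many joints lies on fat, including the fat pad below the kneecap, so fat cells are a regular part of such samples.

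Libraries held 31172215 to 34084345 counts. The lowest count of any of the 10 genes in any library was 520, for Npr3 in AIA replicate 18. AIA replicates 18, 19 and 23 lay at -61.8, -72.6 and -44.6 on the first principal component, which held 26.3% of the variance, while the other 12 libraries lay between -2.89 and 29.5. CON replicate 2 and AIA replicate 19 contained skeletal muscle transcripts, with a summed level of 9064 and 17365 CPM (counts scaled to a common library size) over 11 muscle markers, against 27.9 to 70.6 CPM in every other library. All 18 fat cell markers on a separate list, which holds none of the 10 genes, passed the filter, and none was at 0. Their mean log2 CPM relative to control was -0.28 to 0.18 in CON, 0.33 to 0.72 in Ab, and 0.56, 0.73, -1.07, -0.54 and -0.36 in AIA replicates 5, 13, 18, 19 and 23. The 3 AIA libraries that stood apart were thus also the 3 with the least fat cell RNA. In whole tissue, fewer fat cells and less RNA per fat cell cannot be told apart, so the values below are given both per library and relative to these markers.

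**Figure D1:**
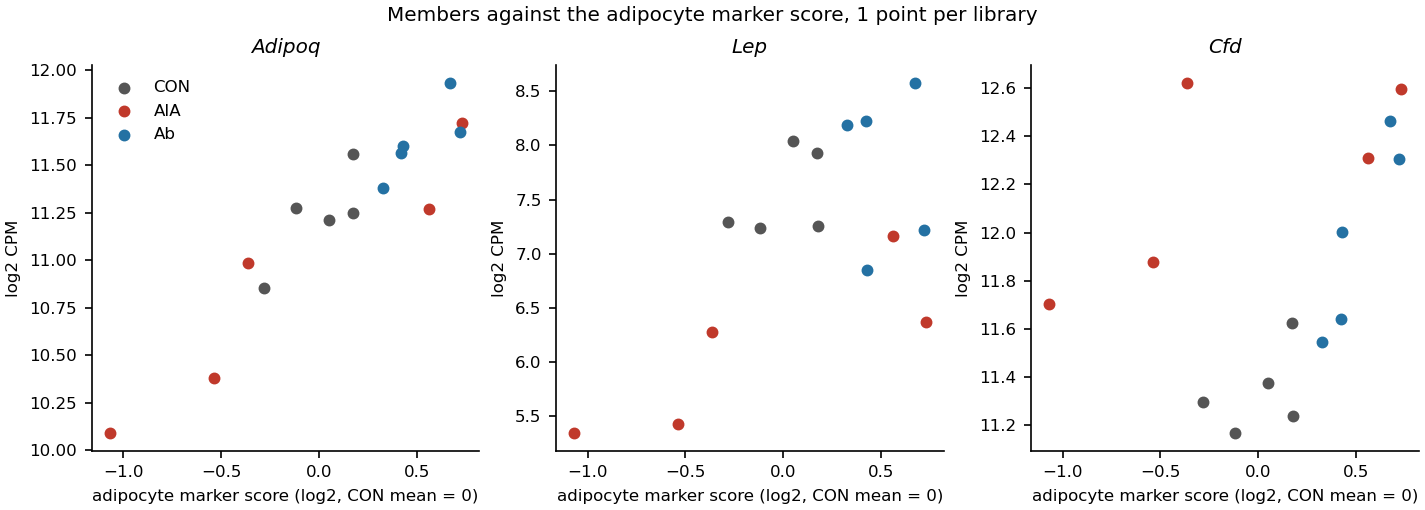
Fat cell marker score (mean log2 CPM of 18 markers relative to the control mean) against the log2 CPM of Adipoq, Lep and Cfd, 1 point per library, coloured by group. AIA libraries run from -1.07 to 0.73 on the score, wider than the control range of -0.28 to 0.18 and the Ab range of 0.33 to 0.72. Adipoq is higher where the score is higher, while every AIA library lies below every control library for Lep and above every one for Cfd.

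Compared per length, in the deposited FPKM unit, which divides a count by gene length and library total, the genes spanned a wide range in control synovium. Cfd was highest, at a mean of 3136 FPKM (2886 to 3580.1), the 16th highest of all 23342 genes. Adipoq followed at 1566 FPKM (1167 to 1823), the 27th highest. Retn, at 491 FPKM, and Nnat, at 452 FPKM, came next, and their ranges of 275 to 704 and 277 to 557 overlapped. Slc2a4 (61.3 FPKM, 47.6 to 67.7) and Lep (58.8 FPKM, 46.9 to 79.3) also overlapped. Grb14, Npr3 and Insr had means of 18.5, 9.48 and 7.42 FPKM, and each neighbouring pair in that order overlapped. Irs1 was lowest at 4.32 FPKM (2.95 to 5.44), below the control range of Insr.

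Against control, the adipokines did not move together in arthritis: Cfd rose 1.89-fold, Lep fell 2.49-fold, and Adipoq and Retn were not called. Lep is among the genes picked for their rise under the antibody, and its call depended on single libraries, as given below. Npr3, a receptor that clears natriuretic peptides, fell 2.79-fold. In all, 3 of the 10 genes were called, 1 higher and 2 lower, where 8.54% of all genes tested were called (5.09% higher and 3.45% lower). Of the 5 genes picked for their rise under the antibody 2 were called, both lower, a direction their choice favours, and of the other 5 genes 1 was called, Cfd. The groups did not overlap for 4 of the 10, 1 higher and 3 lower, against 6.42% of all genes tested (3.25% and 3.17%). Calls are at an adjusted p under 0.05 in edgeR's quasi-likelihood test, with p-values adjusted over all 16046 genes. DESeq2, used as an alternative, called 1962 genes in AIA against control, 1886 in Ab against AIA and 2012 in Ab against control. Counts at an unadjusted p under 0.05, given in places below, have no share of all genes beside them. Nothing is read from those counts about the genes or lists.

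Lep encodes leptin, the hormone by which fat cells report energy stores and which also acts on immune cells. Its level was 263, 151, 156, 243 and 153 CPM in CON replicates 2, 7, 11, 14 and 17, and 144, 82.9, 40.5, 43.1 and 77.5 CPM in AIA replicates 5, 13, 18, 19 and 23. Every AIA library lay below every control library, the highest AIA value (replicate 5) only just, and replicates 18 and 19 were lowest. The log2 fold change was -1.32 ± 0.37 (SE; edgeR adjusted p = 0.0352). This call depended on single libraries: the adjusted p passed 0.05 when CON replicate 2, 11 or 14 or AIA replicate 13, 18, 19 or 23 was left out, and was 0.0514 to 0.0885 in those 7 fits. Without AIA replicates 18, 19 and 23 together, the log2 fold change was -0.77 (edgeR adjusted p = 0.437). Lep was also not called without CON replicate 2 and AIA replicate 19 together, the libraries with muscle transcripts.

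Cfd, by contrast, was 2653, 2296, 2511, 3160.0 and 2411 CPM in control and 5073, 6189.6, 3338, 3766 and 6308 CPM in AIA, in the same order of replicates. All 5 AIA libraries exceeded all 5 control libraries, including replicates 18 and 19, which had the least fat cell RNA. The log2 fold change was 0.92 ± 0.21 (edgeR adjusted p = 0.0134), and the call held in all 18 alternative fits, with adjusted p between 0.000218 and 0.0385. Without AIA replicates 18, 19 and 23 the change was 1.11 (edgeR adjusted p = 0.0252).

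The start regions of these 2 genes are shown because their transcripts went opposite ways in the same libraries. They come from RefSeq on rat assembly GRCr8 and run 5′ to 3′ up to the base before the annotated gene, Lep at chr4:58626288-58626528 on the plus strand and Cfd at chr7:10465497-10465746 on the minus strand. Capitals mark matches to GGGCGG (which reads CCGCCC where it lies on the opposite strand) and to CCAAT (which here reads ATTGG).
Lep: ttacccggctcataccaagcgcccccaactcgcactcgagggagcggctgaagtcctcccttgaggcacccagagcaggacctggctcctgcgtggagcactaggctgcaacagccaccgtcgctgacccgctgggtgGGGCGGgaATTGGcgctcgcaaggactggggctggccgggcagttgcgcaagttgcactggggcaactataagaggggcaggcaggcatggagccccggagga
Cfd: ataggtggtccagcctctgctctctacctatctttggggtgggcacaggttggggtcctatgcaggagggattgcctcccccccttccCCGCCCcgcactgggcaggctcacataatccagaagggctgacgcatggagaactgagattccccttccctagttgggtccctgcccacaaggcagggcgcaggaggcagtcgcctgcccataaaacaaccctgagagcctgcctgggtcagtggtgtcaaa
In Lep, GGGCGG began 103 bases and the CCAAT match 95 bases before the annotated gene. In Cfd, the only match was GGGCGG on the opposite strand, beginning 162 bases before the gene. The motifs searched, on both strands, were CCAAT (the CCAAT box), TATAAA (the TATA box), GGGCGG (the GC box), CACGTG (the E-box form bound by factors such as USF and ChREBP) and AGGTCA (the core site of nuclear receptors such as PPARG), and none of the matches in the printed windows overlap. CCAAT occurs in 34% and GGGCGG in 30.5% of 33469 rat promoter windows of 250 bases, so either match is common, and a match is no measure of binding.

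Adiponectin, the product of Adipoq, is an insulin-sensitising hormone that only fat cells make in quantity. Adipoq was 2376, 2482, 1852, 3017 and 2433 CPM in control and 2469, 3383, 1089.9, 1335 and 2028 CPM in AIA. Replicate 13 was above every control library and replicates 18 and 19 below every one, and the change was not called (-0.24 ± 0.25, edgeR adjusted p = 0.657). Without AIA replicates 18, 19 and 23 its sign turned, to 0.27. Retn encodes resistin, which in rodents is a fat cell hormone that counters insulin. It was 403, 403, 213, 175 and 258 CPM in control and 283, 711, 173, 173 and 275 CPM in AIA, so that only replicate 13 exceeded the control range (0.15 ± 0.35, edgeR adjusted p = 0.868). Without replicate 13 the log2 value was -0.35, again not called.

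**Figure D2:**
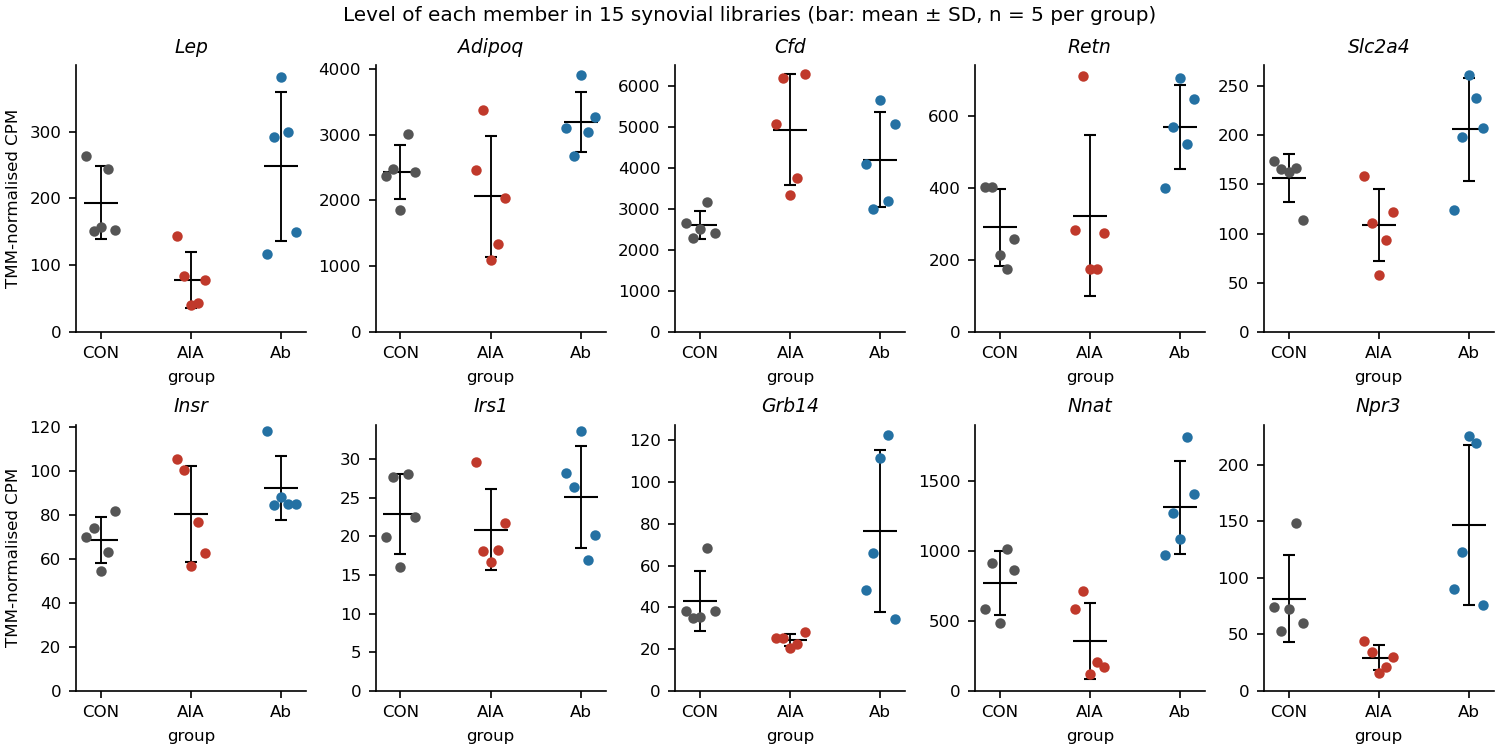
Level of each of the 10 genes in each of the 15 libraries (CPM), by group, with group means. Cfd lies higher and Lep, Grb14 and Npr3 lie lower in every AIA library than in every control library, and Nnat, Grb14 and Npr3 are higher in every Ab than in every AIA library.

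Upstream in the insulin response, the receptor gene Insr and the adaptor gene Irs1 were not called between arthritis and control. Insr was 54.5 to 81.8 CPM in control (median 70.1) and 105, 101, 56.7, 76.8 and 62.8 CPM in AIA, with replicates 5 and 13 above the control range (0.23 ± 0.17, edgeR adjusted p = 0.503). Irs1 was 16 to 28.1 CPM in control and 16.7 to 29.6 CPM in AIA, so the groups covered nearly the same range (-0.13 ± 0.20, edgeR adjusted p = 0.789).

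Grb14 encodes an adaptor that binds the activated insulin receptor and inhibits it. It was 38.2, 34.9, 35.2, 68.3 and 38.2 CPM in control and 25.4, 25.2, 20.5, 22.4 and 28.1 CPM in AIA. The groups did not overlap, and the AIA libraries were close to each other (SD 2.95 CPM, against 14.2 in control, where replicate 14 was high). The change of -0.82 ± 0.29 was not called (edgeR adjusted p = 0.108), although DESeq2 (adjusted p = 0.0487) and an edgeR fit of only these 2 groups (adjusted p = 0.0273) did call it.

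Slc2a4 encodes GLUT4, the insulin-responsive glucose transporter of fat and muscle. It was 174, 165, 162, 166 and 114 CPM in control and 159, 111, 57.9, 93.7 and 122 CPM in AIA. Replicates 13, 18 and 19 lay below every control library, and the other 2 within the range of control (-0.52 ± 0.23, edgeR adjusted p = 0.199). CON replicate 2 and AIA replicate 19, the libraries with muscle transcripts, were the highest of their group and the second lowest of theirs. Without both the change was -0.43 (edgeR adjusted p = 0.5).

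Npr3 encodes the natriuretic peptide receptor that takes up and clears these peptides, which otherwise promote fat breakdown in fat cells, and fasting is known to lower it in the fat of rats. Npr3 was 74.2, 53.0, 72.3, 148 and 60.2 CPM in control and 44.1, 34.8, 16.1, 21.2 and 30.0 CPM in AIA. All AIA values were below all control values, and Npr3 fell by 1.48 ± 0.36 on the log2 scale (edgeR adjusted p = 0.0192). Leaving out CON replicate 14, the highest control library, or AIA replicate 19 ended the call (edgeR adjusted p = 0.0585 and 0.0508). So did leaving out AIA replicates 18, 19 and 23 together (-1.05, edgeR adjusted p = 0.318). The call also ended without CON replicate 2 and AIA replicate 19 together, the libraries with muscle transcripts.

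Nnat encodes neuronatin, a small membrane protein of the endoplasmic reticulum found in neurons, pancreatic beta cells and fat cells. It was 583, 916, 485, 1017 and 863 CPM in control and 582, 714, 117, 204 and 173 CPM in AIA. The AIA libraries split: replicates 5 and 13 were within the control range, and 18, 19 and 23 far below it. The change of -1.11 ± 0.42 was not called over all libraries (edgeR adjusted p = 0.125) but was without AIA replicate 13 (-1.51, edgeR adjusted p = 0.0245). In RefSeq on GRCr8 Nnat lies within the span of Blcap, and the strandedness of counting is not stated. Whether any reads of one gene were counted for the other was not tested. Blcap was 72.3 ± 5.15 CPM in control, 59.3 ± 16.1 in AIA and 91.6 ± 8.40 in Ab (mean ± SD, n = 5 each).

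Because fat cell RNA varied so much among the AIA libraries, each gene was also expressed as the log2 ratio of its CPM to the mean of the 18 fat cell markers. On this scale 4 of the 10 genes separated AIA from control. Relative to the fat cell markers, Lep, Nnat and Npr3 were lower and Cfd higher in every AIA library than in every control library. Which cells made these transcripts was not tested. Of all genes tested, 1.33% separated the groups in this way (0.922% higher and 0.411% lower). With 5 against 5 libraries, a two-sided exact permutation test cannot give a p below 0.00794, which all 4 genes reached, and p-values are printed unadjusted for the 10 genes compared. For Lep, Nnat and Npr3 these are subject to the choice of genes described at the outset.

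For Lep the log2 ratio was -0.38, -1.01, -0.80, -0.62 and -1.30 in control and -1.77, -2.73, -1.96, -2.41 and -1.73 in AIA. Every AIA library lay below every control library, with replicates 23 and 5 nearest to control and replicate 13 farthest, and the mean difference was -1.30 (exact permutation p = 0.00794). For Cfd the log2 ratio was 2.95, 2.91, 3.20, 3.08 and 2.69 in control and 3.37, 3.49, 4.40, 4.04 and 4.61 in AIA. Replicates 18, 19 and 23 were highest, and the mean difference was 1.02 (exact permutation p = 0.00794). With only AIA replicates 5 and 13 kept in that group, it was 0.47.

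Nnat, which overlapped by level, had log2 ratios of 0.76 to 1.58 in control and 0.25, 0.37, -0.43, -0.16 and -0.57 in AIA. The groups were separate, with a mean difference of -1.27 (exact permutation p = 0.00794). Npr3 had log2 ratios of -2.64 to -1.33 in control and -3.98 to -3.10 in AIA (difference -1.33, exact permutation p = 0.00794). The remaining 6 genes overlapped between the groups and did not pass: the differences were -0.20 for Adipoq, 0.15 for Retn, -0.45 for Slc2a4, 0.33 for Insr, 0.00 for Irs1 and -0.64 for Grb14, with exact permutation p from 0.111 to 0.992. Some passed with libraries left out: Slc2a4 without CON replicate 17 (-0.60, exact permutation p = 0.0317), Insr without AIA replicate 13 (0.46, p = 0.0476), Adipoq without AIA replicate 23 (-0.29, p = 0.0476) and Grb14 without AIA replicate 18 (-0.81, p = 0.0159). Without AIA replicates 18, 19 and 23, Grb14 was at -1.36 and Adipoq at -0.38 (exact permutation p = 0.0476 for both).

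**Figure D3:**
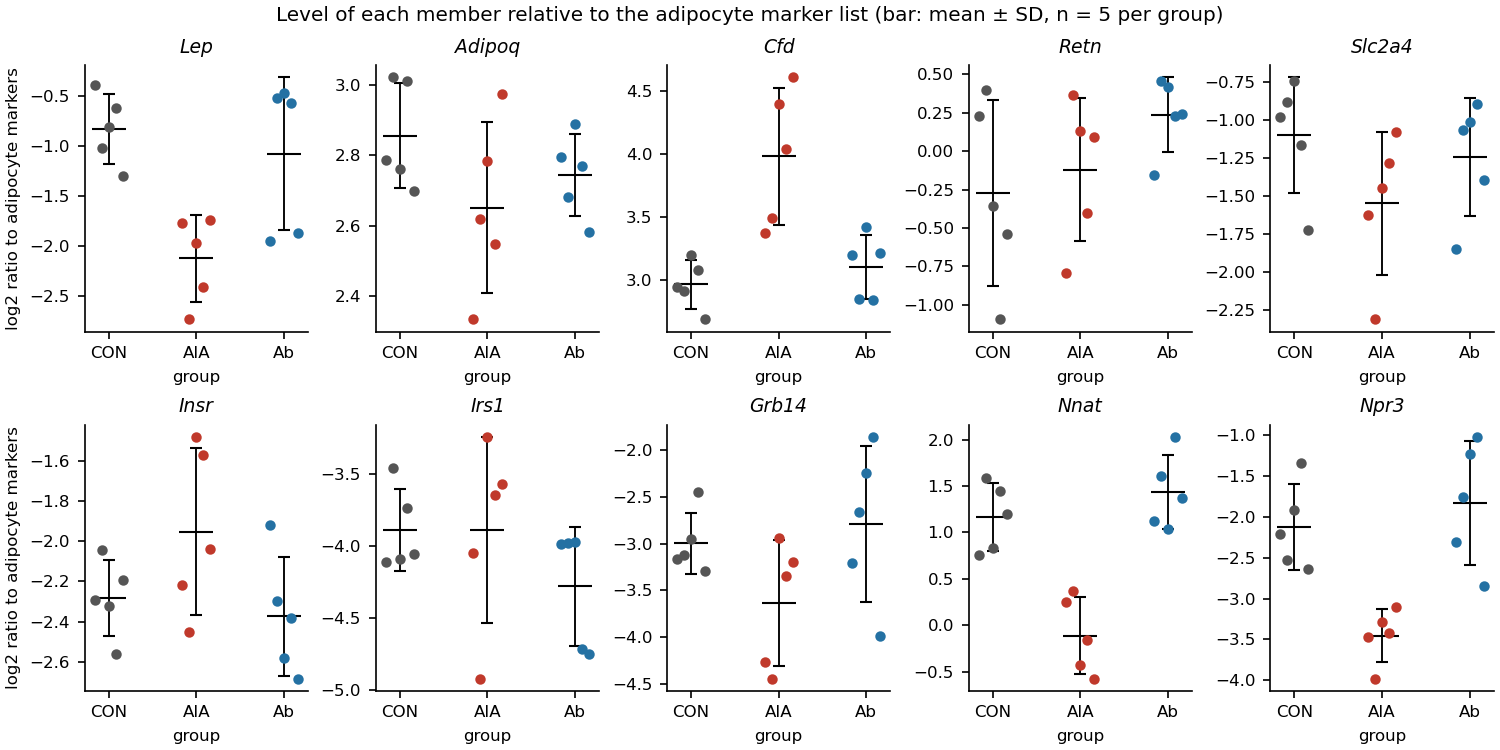
Log2 ratio of each of the 10 genes to the mean of 18 fat cell markers in each library, by group. Lep, Nnat and Npr3 are lower and Cfd higher in all 5 AIA libraries than in all 5 control libraries.

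A fit that used the same libraries and markers in another way called these 4 genes too, so it is no independent test. The choice of Lep, Nnat and Npr3 favours low AIA values here as well. With the fat cell marker score as a covariate in the edgeR fit, an alternative added after the data were seen, AIA against control was called for Cfd (0.97 ± 0.18, adjusted p = 0.00329), Nnat (-1.24 ± 0.21, adjusted p = 0.00242), Npr3 (-1.44 ± 0.33, adjusted p = 0.0121) and Lep (-1.31 ± 0.31, adjusted p = 0.0154). The other 6 were not called, where 8.87% of all genes were called, 5.01% higher and 3.86% lower. The covariate is itself measured in these libraries, and other cell types changed as well: 5 of 6 T cell markers and 4 of 9 neutrophil markers rose in AIA and none fell, while 2 of 10 Schwann cell markers fell, all by edgeR. Of 9 synovial fibroblast markers 2 rose and 3 fell, and 2 of 8 endothelial markers rose, beside 5.09% higher and 3.45% lower of all genes. Their part in the levels of these genes was not tested.

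Under the antibody, the 5 genes picked for their rise had, by construction, higher means than in AIA. Npr3 was 90.5, 123, 225, 219.9 and 75.9 CPM in Ab replicates 3, 9, 10, 12 and 21_8, a mean 5.02-fold above AIA. Nnat was 973, 1269, 1086, 1818 and 1409.6 CPM (3.66-fold), and Grb14 was 48.2, 65.8, 111, 122 and 34.3 CPM (3.14-fold). For these 3 every Ab library exceeded every AIA library, and 3.81% of all genes tested did not overlap in that comparison, 1.61% with Ab higher. Since the choice used this contrast, nothing is read from that count.

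Lep was 116, 291, 382, 299.8 and 149 CPM in Ab (3.19-fold above AIA). Replicate 3 stayed below AIA replicate 5. Slc2a4 was 124, 199, 261, 239 and 207 CPM (1.90-fold), where replicate 3 again overlapped with AIA. Lep, Grb14 and Npr3 shared one pattern within the group: Ab replicates 3 and 21_8 were the lowest for all 3 genes and replicates 9, 10 and 12 the highest. Fat cell RNA did not follow that pattern, since the marker scores of replicates 3 and 21_8 were 0.43 and 0.72, against 0.33, 0.67 and 0.42 in replicates 9, 10 and 12.

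The antibody libraries also held more fat cell RNA than most AIA libraries. All 18 fat cell markers had a positive log2 fold change in Ab against AIA, with a median of 0.45, and 1 was called (Mrap, 0.95, edgeR adjusted p = 0.0473), where 1.83% of all genes were called higher. This rested on AIA replicates 18, 19 and 23: without them, an alternative added after the data were seen, the median was -0.15 and 5 of the 18 were positive, while 6 of the 18 were called higher in AIA than in control (median 0.63). Other cell types differed in the same comparison: 5 of 6 T cell markers (median -1.84), 5 of 9 synovial fibroblast markers (median -0.85) and 4 of 10 macrophage markers (median -0.68) were lower in Ab and none higher by edgeR, where 3.99% of all genes were lower. In the fit without AIA replicates 18, 19 and 23, edgeR called 0 of each list, with 3, 3 and 6 at an unadjusted p under 0.05. Their part in the levels of the 10 genes was not tested. With the marker score as a covariate the log2 values of the picked genes were lower: Npr3 went from 2.33 to 1.94, Nnat from 1.87 to 1.33, Lep from 1.67 to 1.25, Grb14 from 1.65 to 1.54 and Slc2a4 from 0.92 to 0.63. Without AIA replicates 18, 19 and 23 they were 1.89 for Npr3, 1.01 for Nnat, 1.12 for Lep, 1.59 for Grb14 and 0.61 for Slc2a4. Relative to the markers, the log2 ratios of Npr3 and Nnat still separated every Ab from every AIA library (differences 1.62 and 1.54), while those of Lep, Grb14 and Slc2a4 overlapped (1.05, 0.85 and 0.31). On that scale 1.2% of all genes separated the groups, 0.0499% with Ab higher, but these genes were chosen on the same contrast and nothing is read from the comparison with that share. For Lep the ratio was -1.95 and -1.87 in replicates 3 and 21_8, inside the AIA range, and -0.51, -0.47 and -0.57 in the other 3, inside the range of control.

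Of the 5 genes that could be tested, 0 were called in Ab against AIA, where 5.83% of all genes were called, and DESeq2 called 0 as well. At an unadjusted p under 0.05, for which no share of all genes is given, there were 2, Adipoq and Retn. Adipoq was 3105, 2671, 3916, 3033 and 3272 CPM in Ab, all above the control median and narrower than AIA (0.63 ± 0.25, edgeR adjusted p = 0.132). Retn was 401, 570.4, 705, 522 and 646 CPM in Ab, and AIA replicate 13 at 711 CPM was above them all (0.82 ± 0.35, edgeR adjusted p = 0.177). Without that AIA library both were called, Adipoq at 0.87 (edgeR adjusted p = 0.0191) and Retn at 1.32 (edgeR adjusted p = 0.00926).

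Cfd, higher in arthritis, was 4102, 2989, 5658, 3193 and 5064 CPM in Ab, with replicates 9 and 12 below every AIA library and the other 3 within the AIA range (-0.23 ± 0.21, edgeR adjusted p = 0.553). Relative to the fat cell markers, however, its log2 ratio was 3.20, 2.84, 3.42, 2.84 and 3.21, against 3.37 to 4.61 in AIA. Only Ab replicate 10 overlapped with AIA, and the difference was -0.88 (exact permutation p = 0.0159, unadjusted over 5 genes). With AIA replicates 18, 19 and 23 left out, the exact permutation p was 0.143. Insr (0.20 ± 0.17) and Irs1 (0.26 ± 0.20) were not called, with edgeR adjusted p of 0.532 and 0.478.

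Against control, antibody-treated rats had 0 of 5 tested genes called in edgeR, where 8.05% of all genes were called, with 3 at an unadjusted p under 0.05 (Cfd, Retn and Insr). No share of all genes is given for that unadjusted threshold. DESeq2 called 1 of the 5, Cfd, and 2012 genes in all. Cfd was 1.61-fold above control (0.69 ± 0.21, edgeR adjusted p = 0.0554), with 4 of 5 Ab libraries above every control library, and it was called without Ab replicate 9 (edgeR adjusted p = 0.0409) or 12 (0.0411). Insr was 118, 84.5, 88.3, 85.1 and 84.9 CPM in Ab, and all 5 exceeded the control maximum of 81.8 CPM, where 9.54% of all genes did not overlap, 4.26% with Ab higher (0.42 ± 0.17, edgeR adjusted p = 0.138). Retn was 1.96-fold above control (0.97 ± 0.36, edgeR adjusted p = 0.109). With only these 2 groups in the fit Cfd, Retn and Insr were all called (edgeR adjusted p = 0.0272, 0.0207 and 0.0453).

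Relative to fat cell markers, none of these 5 genes passed the test between Ab and control, with log2 differences of 0.14 for Cfd, 0.51 for Retn, -0.11 for Adipoq, -0.09 for Insr and -0.39 for Irs1 and exact permutation p from 0.0794 to 0.563. Without CON replicate 7, Retn passed (0.68, exact permutation p = 0.0397). All 18 fat cell markers had positive log2 fold changes in this comparison too (median 0.52; edgeR called 0, 4 had an unadjusted p under 0.05, and DESeq2 called 2). The picked genes had log2 values of 0.36 for Lep, 0.40 for Slc2a4, 0.83 for Grb14, 0.76 for Nnat and 0.85 for Npr3 against control, and all overlapped with it.

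**Figure D4:**
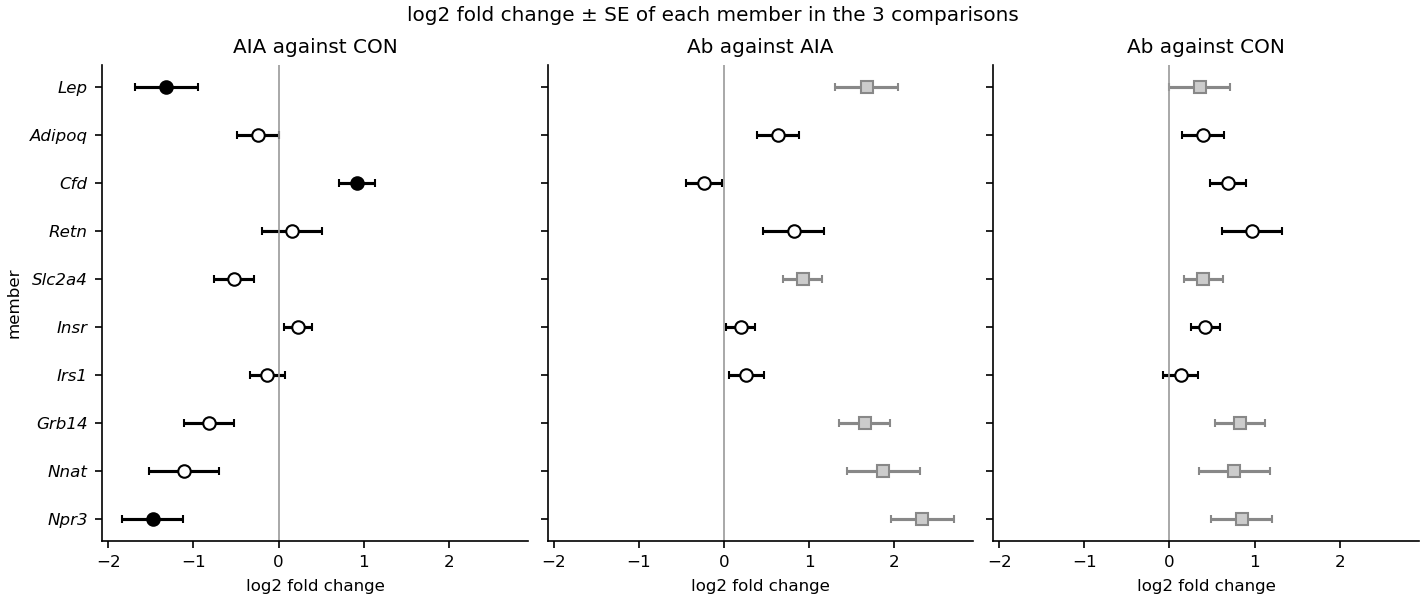
Log2 fold change of each of the 10 genes in AIA against CON, Ab against AIA and Ab against CON, with SE bars. In AIA against CON, Cfd (0.92), Lep (-1.32) and Npr3 (-1.48) were called; the 5 genes picked for their rise under the antibody carry no test in the antibody comparisons, and both comparisons with AIA share its libraries.

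Across the 15 libraries, whose levels also follow group and fat cell RNA, the genes fell into different company. Lep ran with Npr3 (Pearson r of log2 CPM 0.929, and 0.848 after removing group means) and with Slc2a4 (0.902 and 0.823). Grb14 ran with Npr3 (0.949 and 0.88). Lep, Slc2a4, Grb14 and Npr3 were all picked for a rise under the antibody, which favours a high r over all libraries. Nothing is read from their r over all libraries. For Cfd, r was -0.218 with Lep and -0.135 with Npr3 over all libraries, but 0.354 and 0.404 after removing group means, so its sign differed between and within groups. By r over all libraries, the measure used to choose them, the nearest of all tested genes was Cdip1 for Lep (r = 0.96, and 0.894 after removing group means), Paqr6 for Grb14 (0.963), Apcdd1, an inhibitor of Wnt signalling, for Npr3 (0.957), and Adra2c, an adrenergic receptor, for Slc2a4 (0.94). Adipoq was nearest to Acat1, a mitochondrial enzyme of ketone and fatty acid metabolism (0.962), and Nnat to Blcap (0.94), with which it shares its locus, then to Trarg1, a partner of GLUT4 in fat cells (0.934). After removing group means that order turned for Nnat (Blcap 0.864, Trarg1 0.916), and for Lep Iqsec1 (0.951) came before Cdip1. Cfd was nearest to Gys2, a glycogen synthase best known from liver (0.864), though after removing group means Cpt2, an enzyme of mitochondrial fatty acid import, was closer (0.813, against 0.738 for Gys2). Gys2 rose in AIA (6.87 CPM in control, 20.8 in AIA and 21 in Ab; 1.60, edgeR adjusted p = 0.00365). Retn was nearest to Lhx2 (0.917), Insr to Eno4 (0.946) and Irs1 to Naa30 (0.81), the weakest of these.

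The start region of Grb14 is shown for its repeats of one motif. It covers chr3:70091922-70092171 on the minus strand of GRCr8, from RefSeq, 5′ to 3′, with matches to CCGCCC in capitals, which is the motif GGGCGG read on the opposite strand.
Grb14: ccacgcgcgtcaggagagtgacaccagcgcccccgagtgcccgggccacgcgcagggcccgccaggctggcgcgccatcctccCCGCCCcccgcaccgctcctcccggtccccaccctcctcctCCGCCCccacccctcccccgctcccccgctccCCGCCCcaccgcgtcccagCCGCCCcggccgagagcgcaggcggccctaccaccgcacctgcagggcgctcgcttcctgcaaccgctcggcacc
It held 4 such matches, beginning 167, 126, 94 and 75 bases before the annotated gene, in a window with 80.0% G and C, against a median of 51.2% over all rat promoters. The Npr3 and Insr windows held none of the 5 motifs searched, which says only that these letters are not in them. Both windows held 0 bases before the annotated gene, unlike the windows printed here.

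Among 19 other tested adipose-secreted factors, 4 were higher and 2 lower in AIA than control, where 5.09% of all genes were higher and 3.45% lower. Lcn2, the iron-trapping protein lipocalin-2, rose by 2.06 on the log2 scale (11.6 to 48.5 CPM, edgeR adjusted p = 0.000269) and was as high in Ab (60.4 CPM). C1qtnf6 and C1qtnf1, of the family of adiponectin paralogs, rose by 1.40 and 1.09 (edgeR adjusted p = 0.0095 and 0.0272), and C1qtnf3 went from 0.695 to 22.3 CPM (edgeR adjusted p = 0.0232). C1qtnf9, another paralog, fell by 1.58 and Sfrp5, a secreted Wnt antagonist of fat cells, fell by 0.79 (edgeR adjusted p = 0.0206 and 0.0368). In Ab against AIA, C1qtnf6 was lower (-1.65, edgeR adjusted p = 0.0124), C1qtnf3 was lower (0.178 CPM in Ab, edgeR adjusted p = 0.0199), and Rbp4, the retinol carrier, was higher (0.97, edgeR adjusted p = 0.0444). Without CON replicate 2 and AIA replicate 19, the counts in AIA against control were 1 higher and 0 lower. With AIA replicates 18, 19 and 23 left out they were 3 and 1. In Ab against AIA, 1 of the 19 was higher and 2 lower, beside 1.83% and 3.99% of all genes. Those counts were the same without CON replicate 2 and AIA replicate 19. With AIA replicates 18, 19 and 23 left out, edgeR called 0, with 8 at an unadjusted p under 0.05. None of 7 adipokine receptors was called by edgeR in any comparison, although 2, 1 and 2 had an unadjusted p under 0.05 in AIA against CON, Ab against AIA and Ab against CON, and DESeq2 called 1, 0 and 1. The leptin receptor gene Lepr was 23.6 CPM in control, 20.6 in AIA and 28.6 in Ab, and the adiponectin receptor gene Adipor1 was 171, 186 and 187 CPM.

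Within insulin signalling, the shares called in arthritis can be set beside 5.09% higher and 3.45% lower of all genes. Of 12 tested inhibitors of the pathway, 2 rose in AIA against control and 0 fell: Socs3, which blocks the receptor and its adaptors and is induced by cytokines (1.61, edgeR adjusted p = 0.00979), and Grb10, the closest relative of Grb14 (0.39, edgeR adjusted p = 0.0179). Grb10 was thus higher and Grb14 had lower values in the same libraries. Of 22 genes of the positive arm, the adaptor Shc1 rose (0.53, edgeR adjusted p = 0.0033) and the transcription factor Foxo1 fell (-0.44, edgeR adjusted p = 0.0494). Without CON replicate 2 and AIA replicate 19, no inhibitor was called by edgeR (5 at an unadjusted p under 0.05), and without AIA replicates 18, 19 and 23 the inhibitors had 0 called higher and 1 lower. The positive arm had 1 higher and 0 lower without that pair, and 0 called by edgeR without those 3 libraries, with 1 gene at an unadjusted p under 0.05. None of either list was called by edgeR in Ab against AIA, where 5.83% of all genes were called. There, 5 of the inhibitors and 3 of the positive arm had an unadjusted p under 0.05, and DESeq2 called 3 and 0. The median log2 fold changes of both lists lay between -0.07 and 0.06 in the 3 comparisons, where the median of all genes was 0.00 in each.

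Downstream, 1 of 12 genes of GLUT4 vesicles and their traffic fell in AIA, the vesicle SNARE gene Vamp2 (-0.32, edgeR adjusted p = 0.0284), and 1 rose in Ab against AIA, the motor protein gene Myo1c (0.46, edgeR adjusted p = 0.0294), beside 3.45% lower and 1.83% higher of all genes in those comparisons. Both calls were lost without CON replicate 2 and AIA replicate 19, and without AIA replicates 18, 19 and 23. None of 9 other glucose transporters was called by edgeR in AIA against control, with 3 at an unadjusted p under 0.05 and 1 called by DESeq2. Among them, Slc2a1, the basal transporter GLUT1, was 30.4 CPM in control, 23.8 in AIA and 26.9 in Ab. Slc2a10, another transporter, was lower in Ab than in AIA (-1.88, edgeR adjusted p = 0.0148), a call lost without AIA replicates 18, 19 and 23. Slc2a5, the fructose transporter, was lower in Ab than in control (-1.04, edgeR adjusted p = 0.0469). That call was lost without CON replicate 2 and AIA replicate 19. Of 13 insulin-induced genes of lipogenesis and glucose use, 1 fell in AIA, Me1, the malic enzyme that supplies NADPH (-0.91, edgeR adjusted p = 0.00592). The Me1 call was lost without AIA replicates 18, 19 and 23. In Ab against AIA, 11 of the 13 had positive values and the median was 0.47, beside 0.45 for the fat cell markers. edgeR called 0, 5 had an unadjusted p under 0.05, and DESeq2 called 3. Without AIA replicates 18, 19 and 23 the median was 0.08. Scd, the stearoyl-CoA desaturase gene, had the mean levels 513, 530 and 1934 CPM in CON, AIA and Ab with a wide error (1.87 ± 0.86, edgeR adjusted p = 0.205). Among the 6 tested genes of the natriuretic peptide system other than Npr3, Ostn, whose peptide product binds the NPR3 protein, fell in AIA (-1.62, edgeR adjusted p = 0.048), at levels of 2.15 and 0.699 CPM. The Ostn call was lost without CON replicate 2 and AIA replicate 19, and without AIA replicates 18, 19 and 23. The signalling receptor gene Npr1 was 87.1, 97.3 and 107 CPM in CON, AIA and Ab. It was called higher in Ab than in control (0.30, edgeR adjusted p = 0.0379), but not without CON replicate 2 and AIA replicate 19.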

How the data were processed

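RNA of rat synovium was sequenced in 15 libraries, grouped by their titles into CON, AIA and Ab (5 each); 1.3 ug of total RNA went into each library, per the labels' protocols. The authors deposited raw counts per gene symbol and FPKM values for 23342 symbols. Of 291027 values above 0, 100% of the deposited FPKM match count over gene length and library total within 0.1%, so counts were tested and FPKM was used only to order genes by level. GRCm38 and mm10, which are mouse builds, are listed in the submitters' processing notes, although 20949 symbols, among them the 10 genes described, match rat RefSeq GRCr8. The sources used here give no aligner, counting program or strandedness, so no coordinates of the authors' annotation are printed.

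Counts were fitted in R 4.3.3 with edgeR 4.0.16 (filterByExpr by group, TMM factors, 1 quasi-likelihood fit of the 3 groups together with no covariate). Benjamini-Hochberg adjustment ran over 16046 genes, with calls at an adjusted p under 0.05. CPM uses TMM-scaled totals, log2 CPM a prior count of 2, and the SE of a fold change is the one implied by its F statistic. The log2 ratio to fat cell markers is log2 CPM minus the mean log2 CPM of 18 markers. It was compared by two-sided exact permutation tests (Python 3.11.15). The fit was tested on simulated counts. Totals of 31172215 to 34084345 leave counting error small beside the spread between rats.

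The genes and the 19 lists were chosen with earlier results of these data known. Named genes are the 10 genes, up to 4 called genes per list and comparison with the largest change or the 2 of highest level where none was called, and the 3 genes with the highest Pearson r to each of the 10; not all are printed. Alternatives were other scaling factors, no filter, DESeq2 1.42.0, fits of 2 groups, libraries left out, Plin1 as the only marker, and the marker score as a covariate. Promoter sequences are from RefSeq, which matched 8 of the 10 genes, and Slc2a4 and Nnat had no entry used here.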

Additional observations from a re-analysis of the deposited data

Results flagged for a closer look

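In each of the 30 sets of 5 values (10 genes in 3 groups), the highest or lowest library was compared with the rest, by its gap to the nearest other library as a share of the whole range, with 0.71 as the 95% critical value. Chance flags about 1 in 20 groups, and 3 were found. Slc2a4 was low in CON replicate 17, at 114 CPM, where the other control libraries had 162 to 174 CPM (share 0.84). Insr was high in Ab replicate 3, at 118 CPM, where the other antibody libraries had 84.5 to 88.3 CPM (0.867). Grb14 was high in CON replicate 14, at 68.3 CPM, where the other control libraries had 34.9 to 38.2 CPM (0.865); Npr3 was also highest of its group in that library, at 148 CPM.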

How the results depend on the processing

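No paired analysis was possible because the groups share no replicate number. The number of genes called in AIA against control, 1370, became 907 with only the 2 groups fitted, 572 without CON replicate 2 and AIA replicate 19, 336 without AIA replicates 18, 19 and 23, and 910 to 1943 with 1 library left out. For Ab against AIA, 935 became 1886 with DESeq2, 112 with only the 2 groups, 220 without the muscle-containing pair, 3 with the fat cell marker score as a covariate, 1 without the 3 AIA libraries, and 187 to 2032 with 1 library left out. For Ab against control, 1291 became 2012 with DESeq2, 757 without the muscle-containing pair, and 708 to 1278 with 1 library left out. The covariate, and leaving out the 3 AIA libraries, were chosen after seeing the data.

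Of the values of the 10 genes under these alternatives, 494 stayed the same, 13 gained and 13 lost a call, 2 moved and 8 changed sign. A tested value stayed the same when it kept direction and side of the threshold. Values of the picked genes in the antibody comparisons carry no test and so have no threshold. They stayed the same when direction held and the shift was under the pooled within-group SD of log2 CPM. A larger shift counted as moved. Without the 3 AIA libraries, sign changes were seen for Adipoq (0.27) and Irs1 (0.064) in AIA against control and Insr (-0.16) in Ab against AIA. With the covariate they were seen for Insr (-0.063) in Ab against AIA and Lep (-0.054), Adipoq (-0.035) and Irs1 (-0.019) in Ab against control. Retn in AIA against control ran from -0.35 to 0.31 with 1 library left out. Among log2 ratios to fat cell markers, signs changed without the 3 AIA libraries for Insr (-0.051) and Irs1 (-0.60) in AIA against control and Irs1 (0.21) in Ab against AIA, and without the muscle-containing pair for Irs1 (-0.11). With 1 library left out, ratio differences ran from -0.16 to 0.26 for Irs1 and -0.054 to 0.32 for Retn in AIA against control, and from -0.30 to 0.0081 for Slc2a4 and -0.028 to 0.505 for Grb14 in Ab against control. The cause of these changes was not tested.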
